A study of Saccharomyces cerevisiae with 34 samples.

Results

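The effect of auxin itself was measured in yeast cells without TIR, the plant protein that auxin needs to act on its targets. Cells given auxin and DTT were compared with cells given vehicle and DTT, with 2 mRNA and 2 ribosome footprint libraries on each side, 8 of the 34 libraries of the series. Libraries were chosen by their titles. All came from Saccharomyces cerevisiae of the SK1 background, labelled no TIR, grown in YEPD at 30 °C. The auxin group received 500 µM auxin together with 4 µM IP6, and the vehicle group received matching volumes of DMSO and water. Both groups were given 5 mM DTT 15 min later and are represented by a 1 h and a 2 h library. The labels do not describe a degradation tag, and the series' design text speaks of cells that are wild-type or depleted for Hac1. Auxin and IP6 were always given together and cannot be told apart. The treatments were applied to subcultures split from a culture of the strain, and the labels do not state whether separate cultures gave the 1 h and the 2 h library. The p-values therefore measure only a spread between libraries, which may be technical. That spread was estimated from all libraries of the auxin experiment, including those with TIR and those without DTT. It is what remains after a mean for each group and a shared effect of the hour. A change with the hour that is particular to a TIR group thus adds to the error of the no-TIR comparison.

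Auxin is a plant hormone that fits between an F-box protein of the TIR family and a short peptide motif, so that a protein carrying the motif is marked with ubiquitin and destroyed. Inositol hexakisphosphate (IP6) is a cofactor held within TIR. Yeast has no TIR of its own, so a strain without it shows what the chemicals do when the degradation route is missing. DTT reduces disulfide bonds and causes proteins to misfold in the endoplasmic reticulum (ER). The ER membrane sensor Ire1 then splices HAC1 mRNA, and the Hac1 protein made from it turns on genes of the unfolded protein response (UPR). Auxin is also a weak aromatic acid related to tryptophan, and yeast is known to pump weak acids and foreign compounds out with ABC transporters.

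The libraries held an estimated 16.9 and 10.8 M (mega) reads in genes for mRNA with auxin at 1 h and 2 h, against 13.7 and 15.1 M with vehicle. Footprint libraries held 36.6 and 22.1 M with auxin, against 12.1 and 12.9 M with vehicle. The auxin footprint libraries were thus deeper than both vehicle ones, and the part of this in the footprint values was not tested. The DTT label was checked with HAC1, KAR2 and ERO1. KAR2 mRNA stood at 14790 and 14390 RPKM (reads divided by gene length and library size) with auxin and DTT and at 14980 and 13850 RPKM with vehicle and DTT, against 1142 RPKM in the 1 h library of auxin alone. Footprints of the mating receptors were near 0 in the 4 footprint libraries. They were at most 0.593 RPKM for STE2 of a cells and 0.786 RPKM for STE3 of alpha cells. Some other values of mating genes were higher. STE2 mRNA stood at 14.6 to 26.9 RPKM and SAG1 mRNA of alpha cells at 25.9 to 32.05 RPKM. Footprints were 5.46 to 8.75 RPKM for BAR1 of a cells and 36.1 to 45.2 RPKM for STE4 of haploid cells. The other haploid genes checked had lower footprints than STE4. GPA1 had 9.2 to 11.6 RPKM, RME1 1.89 to 4.81, HO 1.72 to 2.97 and STE18 0.974 to 2.57 RPKM. MFA2 mRNA of a cells was listed at 0 in all 4 mRNA libraries. The labels used here give no mating type.

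No gene passed the test for a difference between auxin and vehicle in any of the 3 readouts. Differences are auxin minus vehicle in log2(RPKM + 1), a scale on which the change of a weakly expressed gene is understated. They were tested with limma (moderated test, Benjamini-Hochberg adjustment over all genes, threshold 0.05). The error came from all libraries of the auxin experiment, those with TIR included, and the counts of genes depend on it. Of 5757 genes tested in mRNA, 0 were called (0%), with a smallest adjusted p of 0.876. At an unadjusted p under 0.05 stood 91 mRNAs (1.58%), 24 higher (0.417%) and 67 lower (1.16%) with auxin. Of 5338 genes tested in footprints, 0 were called (0%; smallest adjusted p = 0.764), and 270 (5.06%) had an unadjusted p under 0.05, 131 higher (2.45%) and 139 lower (2.6%). Of 5329 genes tested for the footprint to mRNA ratio (translational efficiency, TE), 0 were called (0%; smallest adjusted p = 0.0743), and 103 (1.93%) had an unadjusted p under 0.05, 68 higher (1.28%) and 35 lower (0.657%). When the model was fitted to the 4 libraries of each readout alone, with 1 residual degree of freedom, it called 29 mRNAs (0.504%), of which 26 were lower (0.452%). It then called 37 footprint genes (0.693%), of which 27 were lower (0.506%), and 25 ratios (0.469%), of which 11 were lower (0.206%). With 1 residual degree of freedom this fit took most of a gene's spread from other genes. Its p-values therefore say little on whether the hours of a gene agree.

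For most genes the interval of the difference lay within 2-fold. It covers the spread between libraries, and whether that includes separate cultures is not stated. The 95% confidence interval of the difference lay within 2-fold for 5515 mRNAs (95.8%), 5155 footprint genes (96.6%) and 5220 ratios (97.95%). It lay within 1.5-fold for 81.8%, 84.5% and 86.4% of genes in the same order. The median difference over all genes was -0.01 in mRNA, 0.02 in footprints and 0.02 in TE. A difference beyond 2-fold was seen for 18 mRNAs, and these had a median level of 16.1 RPKM, against 196.1 RPKM over all genes tested. The 18 footprint genes beyond 2-fold had a median of 11.95 RPKM, against 133.0 RPKM over all.

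Few genes differed by at least 1.5-fold in the same direction at both hours. The difference had the same sign at 1 h and 2 h for 41.1% of mRNAs, 61.3% of footprint genes and 37.6% of ratios. Pearson's r of the 1 h and 2 h differences was 0.01 (5757 mRNAs), 0.18 (5338 footprint genes) and -0.16 (5329 ratios). By rank (Spearman) the correlation was -0.19, 0.34 and -0.31 in the same order. These values describe genes that share libraries. A difference of at least 1.5-fold in the same direction at both hours was found for 25 mRNAs (0.434% of genes tested), 4 higher and 21 lower (0.365%). In footprints there were 21 such genes (0.393%), 1 higher and 20 lower (0.375%), and in TE 23 ratios (0.432%), 10 higher and 13 lower (0.244%).

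The spread over genes of the log2 difference between 2 libraries puts the auxin effect beside the others of the experiment. For no-TIR auxin against vehicle this SD was 0.24 at 1 h and 0.32 at 2 h in mRNA, and 0.22 and 0.27 in footprints. TIR against no TIR, both with vehicle and DTT, differed by about as much, with an SD of 0.25 at either hour in mRNA and of 0.22 and 0.24 in footprints. With TIR, auxin against vehicle gave 0.55 and 0.38 in mRNA and 0.39 and 0.38 in footprints. An hour of time gave 0.39 in mRNA with auxin and 0.39 with vehicle. DTT against none, both with auxin at 1 h, gave 0.82 in mRNA and 0.93 in footprints.

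**Figure D1:**
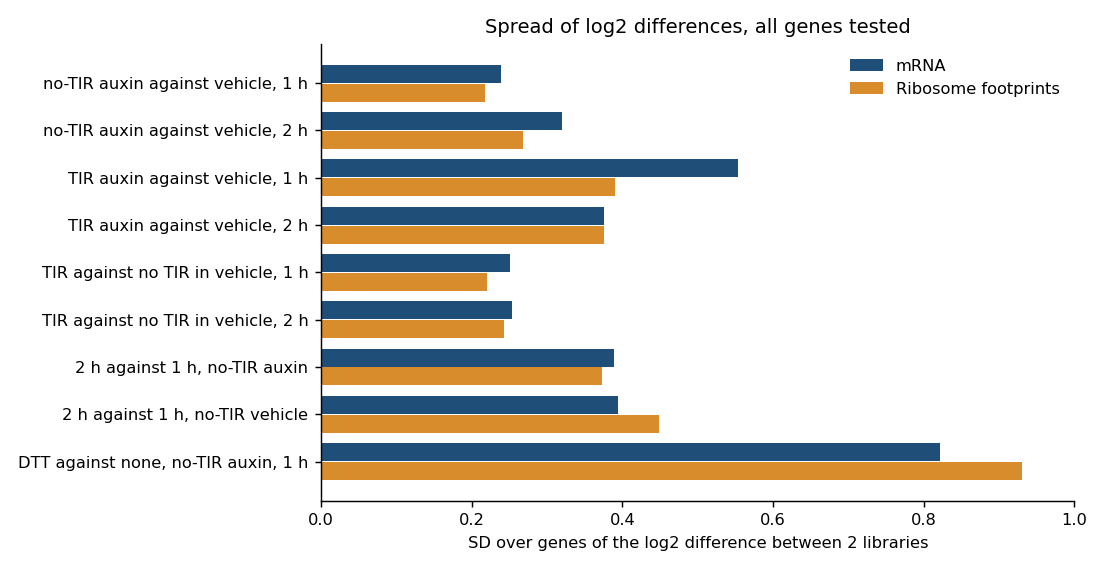
Bars show the SD over all genes tested of the log2 difference between 2 libraries, for mRNA and ribosome footprints and 9 library pairs. The no-TIR auxin against vehicle bars (0.24 and 0.32 in mRNA) lie near those of TIR against no TIR in vehicle (0.25 at both hours) and below that of DTT against none (0.82).

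No UPR gene was called, and for HAC1 and the ER folding genes the interval of the difference lay within 1.5-fold. HAC1, the transcription factor gene of the response, had 25550 and 28080 RPKM of mRNA with auxin, against 29190 and 25970 RPKM with vehicle. The groups overlapped, and the difference was -0.04 ± 0.13 (SE, 95% confidence interval -0.32 to 0.24). HAC1 footprints, summed over the gene with no split by splice form, were 5804 and 5310 RPKM with auxin and 5745 and 5846 RPKM with vehicle (-0.06 ± 0.12, interval -0.34 to 0.21). KAR2, the Hsp70 chaperone of the ER, differed by 0.02 ± 0.12 in mRNA (interval -0.25 to 0.29). KAR2 footprints were 14240 and 12320 RPKM with auxin and 13370 and 14120 RPKM with vehicle (-0.05 ± 0.11, interval -0.32 to 0.21). ERO1, the oxidase that supplies disulfide bonds, had 2355 and 2128 RPKM of mRNA with auxin, against 2360 and 2267 RPKM with vehicle (-0.05 ± 0.14).

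Across the 16 genes of ER protein folding, 0 were called and 0 had an unadjusted p under 0.05 in mRNA or footprints. Over all genes 1.58% and 5.06% had such a p, so 0 of 16 is near that share. All 16 had intervals within 1.5-fold in both readouts (81.8% of all mRNAs and 84.5% of all footprint genes). Their median difference was -0.05 in mRNA and -0.07 in footprints, against -0.01 and 0.02 over all genes. MPD1, a protein disulfide isomerase family member, stood lowest in mRNA with 546 and 421 RPKM with auxin, against 627 and 532 RPKM with vehicle (-0.27 ± 0.13, unadjusted p = 0.0585). ERV2, a sulfhydryl oxidase, stood highest at 0.12 ± 0.16. The 16 measured genes of ER-associated degradation had a median of -0.02 in mRNA and 0.00 in footprints, and all 16 had intervals within 2-fold. In UPR signalling, IRE1 differed by 0.13 ± 0.16 in mRNA, and TRL1, the ligase that joins the spliced HAC1 exons, by 0.09 ± 0.15. INO1, the inositol-3-phosphate synthase induced with the UPR, had 127 and 88.7 RPKM of mRNA with auxin and 128 and 116 RPKM with vehicle (-0.19 ± 0.18).

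HNT1 and ODC2 are a pair of genes that the study names for long, poorly translated mRNA isoforms. They were chosen on samples of this series, so their values are not independent of that choice. HNT1, a nucleotide hydrolase, had 1933 and 1246 RPKM of mRNA with auxin and 1913 and 1648 RPKM with vehicle (-0.19 ± 0.19). HNT1 footprints were 1122 and 1073 RPKM with auxin, against 1094 and 882 RPKM with vehicle (0.16 ± 0.11). ODC2, a mitochondrial dicarboxylate carrier, had 1061 and 872 RPKM of mRNA with auxin and 935 and 922 RPKM with vehicle (0.05 ± 0.16). Its footprints were 429 and 388 RPKM with auxin, above both vehicle libraries at 314 and 305 RPKM (0.40 ± 0.14, unadjusted p = 0.0207, adjusted p = 0.855). With the 4 footprint libraries alone (1 residual degree of freedom) ODC2 had an adjusted p of 0.0477, which says little on whether the hours agree.

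**Figure D2:**
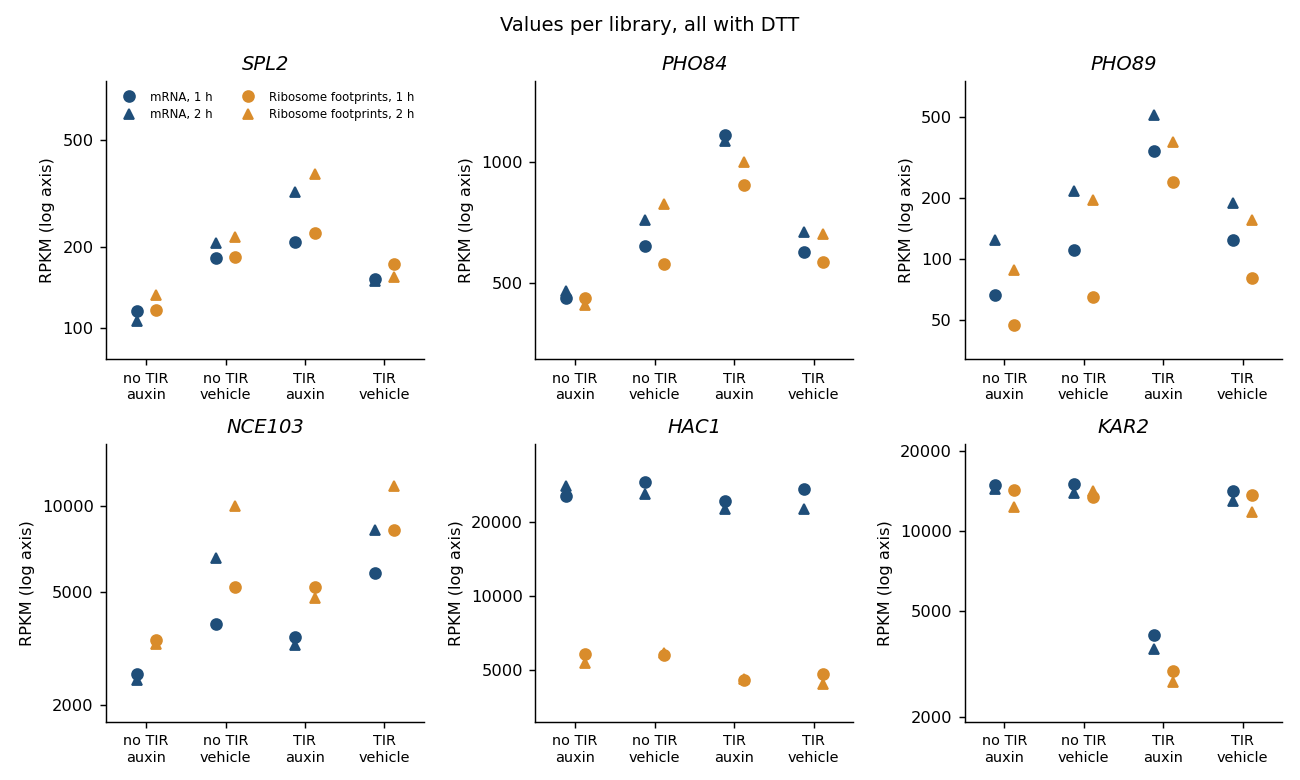
Each panel shows 1 gene, with RPKM on a log axis for mRNA (blue) and footprints (orange) in cells without and with TIR, all with DTT. At each hour (circles 1 h, triangles 2 h) SPL2, PHO84 and PHO89 mRNA is lower with auxin than with vehicle without TIR and higher with TIR, NCE103 is lower with auxin in both strains, and KAR2 mRNA is low in TIR cells with auxin (4051 and 3595 RPKM).

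No gene that yeast uses against weak acids and foreign compounds was called, and neither was any other gene tested. Of the 19 drug efflux genes (targets and regulators of Pdr1 and its relatives), 0 had an unadjusted p under 0.05. Over all genes 1.58% of mRNAs and 5.06% of footprint genes did, so 0 among so few is near that share. The median was 0.04 in mRNA and 0.00 in footprints, and all 19 mRNAs had intervals within 2-fold (95.8% of all mRNAs). PDR5, the main drug-exporting ABC transporter, had 613 and 766 RPKM of mRNA with auxin, against 640 and 640 RPKM with vehicle (0.10 ± 0.15, interval -0.23 to 0.43). The vehicle libraries lay between the auxin ones. SNQ2, another ABC exporter, had 120 and 154 RPKM with auxin and 130 and 131 RPKM with vehicle (0.05 ± 0.19). ICT1, an acyltransferase whose gene is a Pdr1 target, stood highest in the list at 0.27 ± 0.16. PDR12, the weak-acid exporter, had 46.2 and 52.1 RPKM of mRNA with auxin, against 46.2 and 40.8 RPKM with vehicle (0.17 ± 0.17, interval -0.20 to 0.55). PDR12 footprints were 52.6 and 48.6 RPKM with auxin and 42.6 and 42.4 RPKM with vehicle (0.25 ± 0.14, unadjusted p = 0.108).

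In the weak acid list as a whole, 13 mRNAs had a median of -0.03, with 5 lower and 1 higher at both hours (21.6% and 19.4% of all genes). Of the 13, 2 had an unadjusted p under 0.05 in mRNA, both lower (1.16% of all genes were). YRO2, a plasma membrane protein gene of the Haa1 regulon, had 70.6 and 37.99 RPKM with auxin, against 95.1 and 60.4 RPKM with vehicle (-0.54 ± 0.15, unadjusted p = 0.0049). YRO2 was lower with auxin at each hour. SPI1, a cell wall protein gene, had 42.6 and 41.3 RPKM with auxin, below 59.7 and 60.8 RPKM with vehicle (-0.51 ± 0.15, unadjusted p = 0.00645), and neither was called.

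Genes of tryptophan and aromatic amino acid metabolism, the pathways closest to auxin in chemistry, also showed no call. In aromatic catabolism and tryptophan synthesis 16 mRNAs had a median of 0.05, and 0 had an unadjusted p under 0.05 (1.58% of all mRNAs did). All 16 intervals lay within 2-fold (95.8% of all mRNAs). ARO9, an aromatic aminotransferase induced by tryptophan, had 25.9 and 30.2 RPKM with auxin and 21.5 and 21.6 RPKM with vehicle (0.36 ± 0.25). ARO10, the decarboxylase of the same route, had 29.0 and 63.9 RPKM with auxin, against 28.1 and 53.7 RPKM with vehicle (0.15 ± 0.26). The 8 genes of NAD synthesis from tryptophan had a median of -0.13 in mRNA and -0.11 in footprints, with BNA1 lowest at -0.40 ± 0.21. The 14 permeases for amino acids had a median of 0.04 in either readout. The aryl-alcohol dehydrogenases had a median of -0.16 over 6 mRNAs and the redox genes of Yap1 one of -0.05 over 18. For IP6, the 16 genes of inositol phosphate synthesis and inositol-regulated lipids had a median of -0.08 in mRNA and -0.03 in footprints. IPK1, the kinase that makes IP6, stood lowest among them with 145 and 145 RPKM of mRNA with auxin, against 163 and 196 RPKM with vehicle (-0.30 ± 0.20). IPK1 footprints were 69.0 and 58.0 RPKM with auxin, against 45.3 and 58.8 RPKM with vehicle (0.29 ± 0.17), the highest of the list. The IPK1 ratio was higher at both hours (TE difference 0.58 ± 0.18, unadjusted p = 0.00418) and was not called.

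The phosphate regulon stood lower with auxin than any other list, by its mRNA median. Most of these are genes that the factor Pho4 turns on when phosphate is short. Of 17 mRNAs, 13 were lower at both hours and 1 was higher, where 21.6% of all genes tested were lower at both hours. The median was -0.25 (-0.18 at 1 h and -0.29 at 2 h), and 4 members had an unadjusted p under 0.05, all lower (1.16% of all genes were). In footprints 10 of 16 were lower at both hours (26.1% of all genes), with a median of -0.19 and 4 members with an unadjusted p under 0.05, all lower (2.6% of all genes were). None was called.

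SPL2, an inhibitor of low-affinity phosphate uptake, had 115 and 106 RPKM of mRNA with auxin, against 183 and 207 RPKM with vehicle. Both auxin libraries lay below both vehicle libraries. The difference was -0.81 ± 0.17 (unadjusted p = 0.000522, adjusted p = 0.964). SPL2 footprints were 116 and 133 RPKM with auxin and 184 and 219 RPKM with vehicle, again without overlap (-0.68 ± 0.18, unadjusted p = 0.00538). In the library of auxin alone SPL2 mRNA was 16.3 RPKM. With the 4 mRNA libraries alone (1 residual degree of freedom) the adjusted p of SPL2 was 5.69e-05. That fit says little on whether the hours agree. It gave the stress gene HSP12 an adjusted p of 1.6e-06, with mRNA differences of -0.002 at 1 h and -1.93 at 2 h.

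PHO84, the high-affinity phosphate transporter, had 459 and 478 RPKM of mRNA with auxin, below 620 and 719 RPKM with vehicle (-0.51 ± 0.14, unadjusted p = 0.00293, adjusted p = 1.00). PHO84 footprints were 460 and 443 RPKM with auxin, against 557 and 788 RPKM with vehicle (-0.55 ± 0.13, unadjusted p = 0.0028). PHO89, the sodium-coupled phosphate transporter, had 66.1 and 124 RPKM of mRNA with auxin, against 111 and 215 RPKM with vehicle (-0.76 ± 0.24, unadjusted p = 0.00872). Each PHO84 auxin library lay below both vehicle libraries, while PHO89 was lower at each hour but the groups overlapped across hours. PHO81, the inhibitor that relays the phosphate signal to Pho4, had 65.8 and 67.2 RPKM of mRNA with auxin and 85.5 and 86.9 RPKM with vehicle (-0.37 ± 0.14). The acid phosphatase genes PHO5, PHO11 and PHO12 stood at -0.38, -0.25 and -0.41, and the near-identical PHO11 and PHO12 may share reads. The polyphosphate polymerase genes VTC1 to VTC4 lay between -0.25 and -0.09. PHO3, an acid phosphatase that is not induced by low phosphate, was highest at 0.12 ± 0.16.

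**Figure D3:**
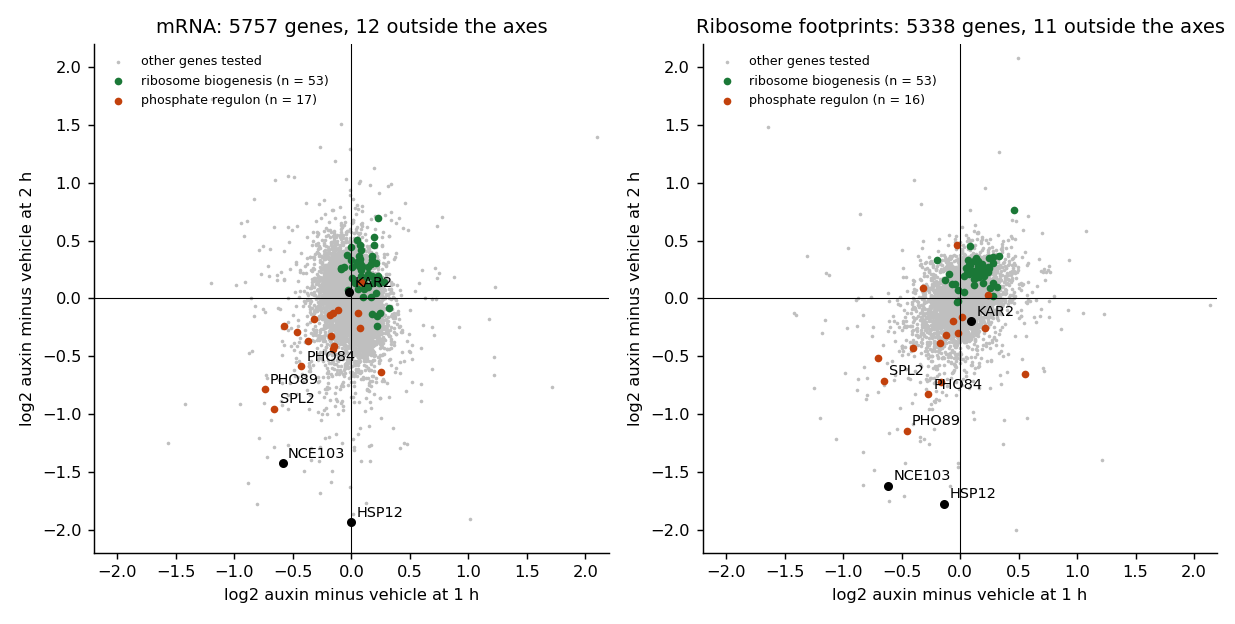
Each point is 1 gene, with the log2 difference of auxin minus vehicle at 1 h on the horizontal axis and at 2 h on the vertical axis, for mRNA (5757 genes, 12 beyond the axes) and footprints (5338 genes, 11 beyond the axes). Most phosphate regulon genes (orange) lie at the lower left, most ribosome biogenesis genes (green) at the upper right, and of the genes marked in black NCE103 is low at both hours and HSP12 mainly at 2 h.

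Outside the lists, the 10 mRNAs and 10 footprint genes of smallest unadjusted p that had the same sign at both hours were examined one by one. NCE103, carbonic anhydrase, had 2557 and 2449 RPKM of mRNA with auxin, below 3844 and 6586 RPKM with vehicle. The vehicle library of 2 h was the highest. The difference was -1.01 ± 0.21 (unadjusted p = 0.000528, adjusted p = 0.964), or -0.59 at 1 h and -1.43 at 2 h. The 4 mRNA libraries alone (1 residual degree of freedom) gave an adjusted p of 5.19e-06, which says little on whether the hours agree. NCE103 footprints showed the same order, 3384 and 3258 RPKM with auxin and 5182 and 10010 RPKM with vehicle (-1.12 ± 0.26, unadjusted p = 0.00261). TOS8, a homeodomain protein gene, had 52.9 and 50.7 RPKM of mRNA with auxin, below 73.3 and 90.5 RPKM with vehicle (-0.64 ± 0.16), yet TOS8 footprints were 31.4 and 30.8 RPKM with auxin, against 29.3 and 33.0 RPKM with vehicle. YBR013C, of unknown function, was lower in both molecules (-0.56 ± 0.15 and -0.45 ± 0.14).

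The other mRNAs of small p were SPL2, PHO84 and genes of low level. YOR008W-B was the one higher with auxin, at 27.4 and 28.2 RPKM, against 5.61 and 10.1 RPKM with vehicle (1.75 ± 0.31, unadjusted p = 0.000152). YMR175W-A had 12.5 and 6.43 RPKM with auxin and 23.9 and 21.5 RPKM with vehicle. YGL007C-A was listed at 0 in both auxin libraries, against 17.5 and 7.85 RPKM with vehicle. YLR154W-E had 14.6 and 10.3 RPKM with auxin and 19.6 and 66.3 RPKM with vehicle. COX2, encoded in the mitochondrial genome, had 13.8 and 10.6 RPKM with auxin, below 22.3 and 27.4 RPKM with vehicle (-0.97 ± 0.26).

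Among footprints, 9 of the 10 genes of smallest unadjusted p were lower with auxin. TOM5, a subunit of the mitochondrial import pore, had 747 and 542 RPKM with auxin, against 1121 and 791 RPKM with vehicle (-0.57 ± 0.10, unadjusted p = 0.000592, adjusted p = 0.79). TOM5 mRNA was 552 and 592 RPKM with auxin and 557 and 636 RPKM with vehicle, so the lower value was in footprints, while the TE difference of -0.51 ± 0.21 was not called. AGX1, alanine:glyoxylate aminotransferase, had 83.4 and 85.2 RPKM of footprints with auxin, below 115 and 131 RPKM with vehicle (-0.54 ± 0.08). HMRA1, the silent copy of the mating gene a1, which may share reads with the active copy, had 35.2 and 45.1 RPKM with auxin, below 63.0 and 68.5 RPKM with vehicle (-0.71 ± 0.12). The splicing factor HSH49 (-0.34 ± 0.08) and the reading frames YDR094W, YHR050W-A, YIR021W-A, MHF1 and YOR082C were also lower (unadjusted p from 0.000333 to 0.00236 for these and HSH49). SPP1, a subunit of the histone methyltransferase complex COMPASS, was higher at 92.5 and 99.98 RPKM with auxin, against 69.5 and 76.4 RPKM with vehicle (0.40 ± 0.09). The adjusted p of these 10 lay between 0.764 and 0.855.

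General stress genes, the targets of Msn2 and Msn4, stood lower with auxin at most members, and ribosome biogenesis genes stood higher. Of 30 stress mRNAs, 21 were lower at both hours and 0 higher (21.6% and 19.4% of all genes), with a median of -0.19. In footprints 23 of 29 were lower at both hours and 0 higher (26.1% and 35.2% of all genes), with a median of -0.29. A single member in each readout had an unadjusted p under 0.05, the glycogen branching enzyme gene GLC3 in footprints (-0.38) and MSC1 in mRNA (-0.37). HSP12, a membrane-stabilising stress protein, had 253 and 228 RPKM of mRNA with auxin, against 253 and 874 RPKM with vehicle. The 2 h vehicle library stood apart, and the difference was -0.00 at 1 h and -1.93 at 2 h (-0.97 ± 0.50, unadjusted p = 0.076). CTT1, cytosolic catalase, had 23.1 and 32.5 RPKM of mRNA with auxin, against 34.0 and 39.4 RPKM with vehicle (-0.41 ± 0.19). DDR2, a DNA damage and stress gene, was listed at 0 in the 1 h auxin library and had 25.8 RPKM in the 2 h one, against 7.48 and 23.6 RPKM with vehicle.

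Ribosome biogenesis genes make rRNA and assemble ribosomal subunits. Of 53 measured mRNAs, 41 were higher at both hours and 0 lower (19.4% and 21.6% of all genes), and in footprints 45 were higher and 2 lower (35.2% and 26.1% of all genes). The median was 0.17 in mRNA and 0.19 in footprints, and 0 had an unadjusted p under 0.05 (1.58% and 5.06% of all genes did). An interval within 1.5-fold was found for 43 mRNAs (81.8% of all mRNAs). DBP2, an RNA helicase, stood highest with 359 and 154 RPKM of mRNA with auxin, against 307 and 95.2 RPKM with vehicle (0.46 ± 0.31). DBP2 was lower at 2 h than at 1 h in both groups, and the groups overlapped across hours.

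Nuclear genes of the respiratory chain and ATP synthase had a median of -0.14 in mRNA and -0.18 in footprints over 36 genes. In mRNA 10 were lower at both hours and 0 higher (21.6% and 19.4% of all genes), with a median of 0.07 at 1 h and -0.36 at 2 h. In footprints 27 were lower at both hours and 0 higher (26.1% and 35.2% of all genes), and 7 had an unadjusted p under 0.05, all lower (2.6% of all genes were). QCR8, a subunit of the cytochrome bc1 complex, had 1689 and 2339 RPKM of footprints with auxin, against 2214 and 3297 RPKM with vehicle (-0.44 ± 0.13, unadjusted p = 0.00992). SDH2, the iron-sulfur subunit of succinate dehydrogenase, had 274 and 270 RPKM of mRNA with auxin and 284 and 411 RPKM with vehicle (-0.33 ± 0.15).

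**Figure D4:**
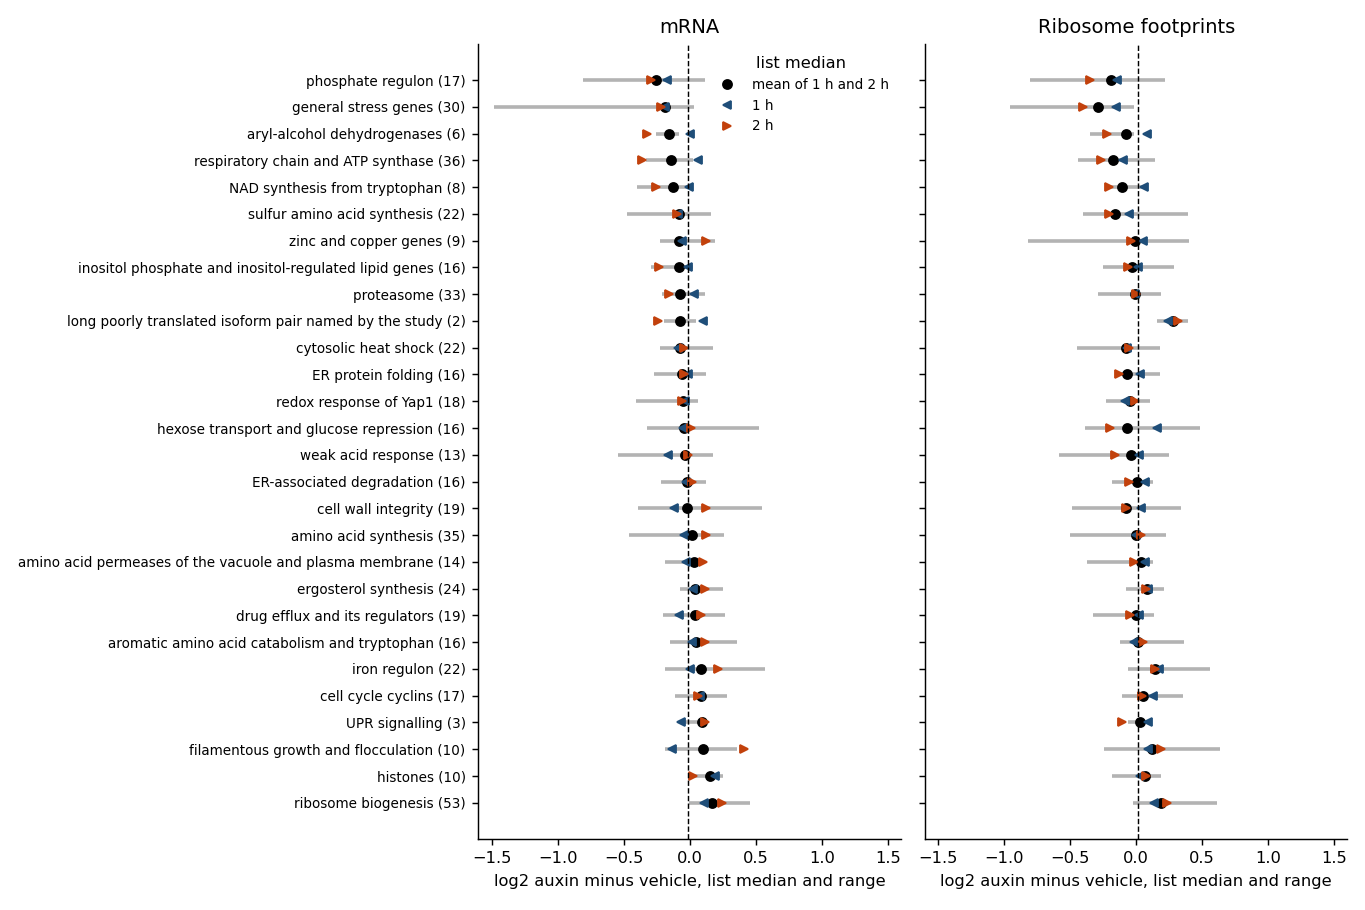
For each gene list (mRNAs tested in brackets) the black point is the median log2 difference of auxin minus vehicle, the triangles are the medians at 1 h and 2 h, the grey line is the range over members, and the dashed line is the median of all genes. The phosphate regulon has the lowest mRNA median (-0.25), general stress genes the lowest footprint median (-0.29), and the ER folding genes cluster near 0 (-0.05 and -0.07).

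The iron regulon, turned on by Aft1 when iron is short, had a median of 0.08 over 22 mRNAs and 0.14 over 20 footprint genes. In mRNA 11 were higher at both hours and 1 lower (19.4% and 21.6% of all genes), and in footprints 14 were higher and 1 lower (35.2% and 26.1% of all genes). An unadjusted p under 0.05 was found for 2 mRNAs and 4 footprint genes, all higher (0.417% and 2.45% of all genes were). With TIR the medians were 0.31 in mRNA and 0.22 in footprints. There 15 mRNAs and 11 footprint genes were higher at both hours, and 3 and 6 lower. The difference of effects was called for 0 members. FET3, the multicopper oxidase of iron uptake, had 62.7 and 84.0 RPKM of footprints with auxin, against 48.4 and 59.4 RPKM with vehicle (0.43 ± 0.13, unadjusted p = 0.0123). FIT1, a cell wall mannoprotein that retains iron carriers, had 65.2 and 190 RPKM of mRNA with auxin, against 55.3 and 101 RPKM with vehicle (0.57 ± 0.25, unadjusted p = 0.0393). The zinc and copper genes had medians of -0.08 over 9 mRNAs and -0.01 over 9 footprint genes.

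None of the other lists held a called gene. Cytosolic heat shock genes had medians of -0.07 in mRNA and -0.08 in footprints (22 genes each), and the proteasome -0.08 and -0.01 (33 each, every interval within 1.5-fold). Amino acid synthesis had 0.02 and 0.00 (35 each). Sulfur amino acid synthesis had -0.08 and -0.16 (22 each), and 15 of its footprint genes were lower at both hours (26.1% of all genes). Ergosterol synthesis had 0.04 and 0.08 (24 each), and 17 of its footprint genes were higher at both hours (35.2% of all genes). Cell wall integrity had -0.02 and -0.07 (19 each), hexose transport and glucose repression -0.04 over 16 mRNAs and -0.07 over 15 footprint genes. Filamentous growth had 0.10 over 10 mRNAs and 0.12 over 11 footprint genes. Cyclins had 0.09 and 0.05 (17 each), and histones 0.15 and 0.07 (10 each).

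In translational efficiency the ratios nearest to a call were those of short or weakly read frames. YIR021W-A had footprints of 2.29 and 4.73 RPKM with auxin, against 15.6 and 14.4 RPKM with vehicle, and mRNA of 56.4 and 65.8 RPKM with auxin, against 67.8 and 79.0 RPKM with vehicle. Its TE difference was -1.62 ± 0.27 (adjusted p = 0.0743). YHR050W-A had 107 and 120 RPKM of footprints with auxin, below 223 and 280 RPKM with vehicle, for a TE difference of -0.88 ± 0.19 (unadjusted p = 0.000184, adjusted p = 0.212). YDR094W stood at -0.79 ± 0.16. NBL1, a subunit of the chromosomal passenger complex, was higher at 0.70 ± 0.16 (unadjusted p = 0.000332). The other ratios among the 10 of smallest p were those of ATP8, YMR175W-A, YPL152W-A, YLR402W, YNL162W-A and YGL007C-A. HNT1 differed by 0.35 ± 0.18 and ODC2 by 0.35 ± 0.19 in TE, neither called, and KAR2 by -0.07 ± 0.14.

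The TIR strain was given the same agents, so the same comparison can be set beside that without TIR. Its 8 libraries are separate from those of the no-TIR strain, so the effects share no library. With TIR, auxin against vehicle called 345 mRNAs (5.99%), 353 footprint genes (6.61%) and 15 ratios (0.281%). The difference of effects, no TIR minus TIR, was called for 53 mRNAs (0.921%), 43 higher (0.747%) and 10 lower (0.174%). It was called for 96 footprint genes (1.8%), 79 higher (1.48%) and 17 lower (0.318%), and for 7 ratios (0.131%), 2 higher (0.0375%) and 5 lower (0.0938%). Of these, 50 mRNAs, 95 footprint genes and 7 ratios had a no-TIR difference under 1.5-fold. Their median absolute difference in mRNA was 0.11 without TIR and 1.28 with TIR.

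Called differences of mRNA included those of UPR genes. ULI1, a gene induced in the UPR, had 3576 and 3802 RPKM of mRNA with auxin and 3505 and 4800 RPKM with vehicle without TIR. With TIR it had 121 and 92.9 RPKM with auxin, against 2822 and 2741 RPKM with vehicle. The auxin effects differed by 4.55 ± 0.25 (adjusted p = 6.31e-06). The other mRNAs with the largest positive differences were YLR349W (5.10), YET2, which encodes an ER membrane protein (2.74), YOR008W-B (2.63) and DOG1, a sugar phosphatase gene (2.51). Their adjusted p lay between 0.00032 for YLR349W and 0.017 for YOR008W-B, and the YOR008W-B call was lost in 5 of 8 fits that each left out 1 library (adjusted p up to 0.0927). KAR2 differed by 1.84 ± 0.17 (adjusted p = 0.000411), standing at -1.82 with TIR and 0.02 without. Among ER folding genes the difference was called for 6 mRNAs and 10 footprint genes, all higher, and the TIR medians were -0.87 and -1.12.

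Phosphate genes stood higher with auxin in the TIR strain. Their median with TIR was 0.47 in mRNA and 0.53 in footprints, with 12 of 17 and 13 of 16 higher at both hours (35.3% and 32.6% of all genes), and the difference was called lower for 3 in each readout (0.174% and 0.318% of all genes). The footprint calls were SPL2, PHM6 and PHO84, and leaving out 1 library ended that of SPL2 in 7 of 8 fits and that of PHM6 in 6 of 8. SPL2 mRNA with TIR was 209 and 321 RPKM with auxin, against 152 and 150 RPKM with vehicle. The auxin effects on SPL2 differed by -1.58 ± 0.24 (adjusted p = 0.00839), and without the hour in the model the adjusted p was 0.0501. PHO84 mRNA with TIR was 1162 and 1126 RPKM with auxin, against 597 and 672 RPKM with vehicle, and the effects differed by -1.36 ± 0.19 (adjusted p = 0.00502). Without the 1 h library of TIR cells with vehicle, the PHO84 adjusted p was 0.052. PHO89 mRNA with TIR was 340 and 512 RPKM with auxin, against 124 and 188 RPKM with vehicle, and the effects differed by -2.21 ± 0.34 (adjusted p = 0.00921). Leaving out the TIR auxin library of either hour or the TIR vehicle library of 1 h ended the PHO89 call (adjusted p up to 0.0634), as did leaving out the hour (0.212).

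YRO2 and SPI1 of the weak acid list also differed. YRO2 mRNA with TIR was 345 and 210 RPKM with auxin, against 138 and 95.8 RPKM with vehicle, and the effects differed by -1.76 ± 0.22 (adjusted p = 0.00275, and 0.317 without the hour). SPI1 mRNA with TIR was 79.0 and 93.6 RPKM with auxin, against 57.7 and 49.0 RPKM with vehicle (difference -1.20 ± 0.22, adjusted p = 0.027). PDR5 mRNA with TIR was 1476 and 1388 RPKM with auxin, against 657 and 757 RPKM with vehicle (1.02, adjusted p = 0.0026), and the effects differed by -0.92 ± 0.21 in mRNA (adjusted p = 0.0866) and -0.81 ± 0.15 in footprints (adjusted p = 0.0418).

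NCE103 was lower with auxin in both strains. With TIR it had 3473 and 3246 RPKM of mRNA with auxin, against 5794 and 8210 RPKM with vehicle (-1.04, adjusted p = 0.0145). The auxin effects on NCE103 differed by 0.03 ± 0.30, with an interval of -0.62 to 0.68. HSP12 showed the same order at 2 h, with 202 RPKM with auxin and 930 RPKM with vehicle in TIR cells, and its effects differed by 0.18 ± 0.70. A difference of at least 1.5-fold in the same direction in all 4 pairs of auxin and vehicle libraries was seen for few genes. These were 4 lower and 1 higher of 5757 mRNAs, and 5 lower and 0 higher of 5338 footprint genes. By the same measure 1 mRNA and 1 footprint gene were lower without TIR and higher with TIR. The mRNAs with the same direction were NCE103 (mean 4180 RPKM), SPG4 (14.7), YOL037C (13.8), YOR343C (6.46) and YBL044W (5.96). At 2 h, 214 mRNAs were at least 1.5-fold lower with auxin without TIR and 302 with TIR. The 60 shared were 28.0% of the no-TIR genes, where 5.246% of all genes were lower with TIR by this measure. They were 19.9% of the TIR genes, where 3.717% of all genes were lower without TIR. At 1 h, 13 lower mRNAs were shared. They were 23.2% of the 56 no-TIR genes, where 11.864% of all genes were lower with TIR. The 1 h share thus lay nearer to that of all genes. Whether noise at low RPKM raised the overlap was not tested.

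**Figure D5:**
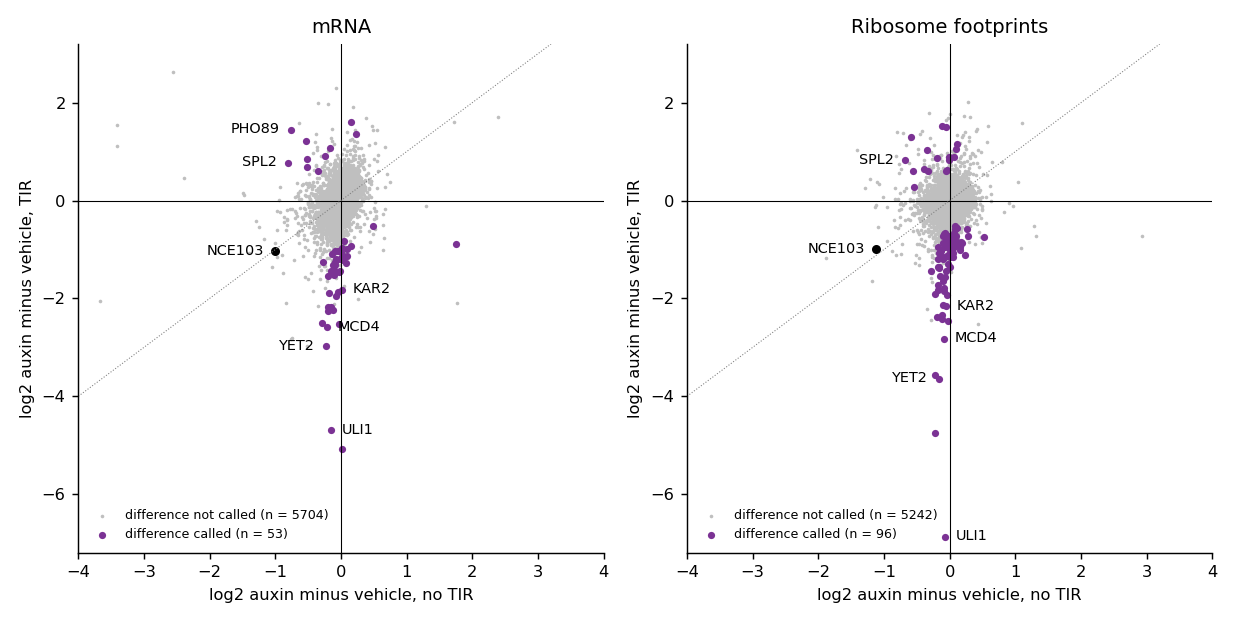
Each point is 1 gene, with the log2 difference of auxin minus vehicle without TIR on the horizontal axis and with TIR on the vertical axis, for mRNA and footprints, in purple where the difference of effects was called. UPR targets such as KAR2 (0.02 without TIR, -1.82 with TIR in mRNA) spread along the TIR axis, and NCE103 (black, -1.01 and -1.04) lies low on both.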

How the data were processed

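The authors deposited a table of 6679 genes for the auxin experiment. Its header names no unit, and the deposited values were taken as RPKM because their range, sums and gene set match those of the series' other table, whose header names RPKM. The submitters' processing notes list CASAVA, bcl2fastq 2.17 and Bowtie2 but not what each did. Build, annotation, how reads were counted and whether strand was used are not stated in the labels. Thus reads of overlapping or antisense genes cannot be separated. Of the identifiers, 5994 matched a RefSeq table, used for symbols only.

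Reads in genes were estimated from the step size of low values (81.3% to 85.7% of low values whole within 0.02 in the 8 libraries), as a description of depth, and counts were not modelled.

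All 11 auxin-experiment libraries of a molecule (6 groups) were fitted together in limma 3.58.1 (R 4.3.3) on log2(RPKM + 1), with group and hour as terms, a mean-variance trend and 4 residual degrees of freedom. Genes needed a mean of at least 5 RPKM. TE was log2(footprint + 1) minus log2(mRNA + 1). P-values were adjusted by Benjamini-Hochberg over all genes, threshold 0.05. Scripts were tested on simulated data.

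The hour is labelled, is also the replicate number, and was kept as a block. The change with the hour correlated between the auxin and vehicle groups at 0.48 in mRNA, 0.72 in footprints and -0.09 in TE.

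Genes named were the 10 of smallest unadjusted p with the same sign at both hours, the extremes of each of 28 lists, up to 5 called differences between strains in each direction, and a few set genes. The genes CTT1, QCR8, FET3, GLC3, MSC1 and the single phosphate, stress and weak acid members given beside the extremes were chosen after their values were seen. The comparison, its members and the lists were chosen with earlier results of these data known. Alternatives were other pseudocounts (0.5 and 5), filters, scaling, models and left-out libraries. One gene of these lists is not reported here.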

Additional observations from a re-analysis of the deposited data

Results flagged for a closer look

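The auxin effect differed between the strains (no TIR minus TIR, log2, adjusted p under 0.05 in limma) for the largest called genes of each readout. In mRNA the effect was higher without TIR for YLR349W (5.10), ULI1 (4.55), YET2 (2.74), YOR008W-B (2.63) and DOG1 (2.51). It was lower without TIR for PHO89 (-2.21), YRO2 (-1.76), SPL2 (-1.58), RSB1 (-1.44) and PHO84 (-1.36). Of 8 other settings (pseudocount, filter, scaling or model), 3 ended the call of RSB1 and 2 that of YOR008W-B. The model without the hour alone ended those of PHO89, YRO2 and SPL2. Leaving out 1 library ended the call of RSB1 in 7 of 8 fits, YOR008W-B in 5, PHO89 in 3 and PHO84 in 1.

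In footprints the effect was higher without TIR for ULI1 (6.80), YLR349W (4.54), YET2 (3.48), INO1 (3.33) and MCD4 (2.74), an enzyme of GPI anchor synthesis. It was lower for YRO2 (-1.88), PHM6 (-1.63), RSB1 (-1.57), SPL2 (-1.50) and SPI1 (-1.38). Leaving out 1 library ended the call of SPI1 and SPL2 in 7 of 8 fits each, YRO2 and PHM6 in 6 each and RSB1 in 2. Of 8 other settings, 3 each ended the calls of PHM6, SPI1 and SPL2 (adjusted p up to 0.54, 0.493 and 0.127). The YRO2 and RSB1 calls were ended by 1 of them, the model without the hour (adjusted p 0.346 and 0.0565).

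In translational efficiency it was higher for ULI1 (2.26) and ADH4 (1.35), and lower for IRC4 (-2.67), YOL038C-A (-2.13), HEM15 (-1.35), DMA2 (-1.34) and HNT1 (-1.34). Leaving out 1 library ended the call of ADH4 in 5 of 8 fits, HNT1 and YOL038C-A in 4 each, and HEM15 and DMA2 in 1 each. Of 8 other settings, 6 ended the HNT1 call, 3 each those of YOL038C-A and ADH4, and 1 each those of HEM15 and IRC4. HEM15 encodes ferrochelatase and ADH4 an alcohol dehydrogenase.

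In most of these the larger part of the value came from the TIR strain. RSB1, which encodes a sphingoid base exporter, had 39.5 and 59.5 RPKM of mRNA with auxin, against 42.7 and 43.9 RPKM with vehicle without TIR, and 183 and 150 RPKM with auxin, against 55.3 and 52.8 RPKM with vehicle with TIR. YOR008W-B was an exception, at 1.75 without TIR and -0.88 with TIR, and its 8 mRNA values lay between 5.61 and 38.7 RPKM. SPL2 mRNA was another, at -0.81 without TIR and 0.78 with TIR. The mRNAs of PHO84 (-0.51 and 0.85), PHO89 (-0.76 and 1.45) and YRO2 (-0.54 and 1.22) also had opposite signs without and with TIR.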

How the results depend on the processing

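The count of called genes for auxin against vehicle was 0 in mRNA and footprints under other pseudocounts, filters, scaling and without the trend. With the 4 libraries alone it was 29 in mRNA, 37 in footprints and 25 in TE. With the DTT groups alone 1 footprint gene was called, and without the trend 1 ratio. Leaving out 1 library, where the lone sample is assumed to vary like the other groups, gave 0 to 3 mRNAs, 0 to 0 footprint genes and 2 to 5 ratios. Without the replicate block the counts were 0, 0 and 0 (49, 111 and 90 genes at an unadjusted p under 0.05).

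For the difference between strains, the mRNA count was 33 with no filter, 18 without the replicate block and 34 without the trend, and 22 to 64 when 1 library was left out. The footprint count was 27 without the replicate block, 247 with the DTT groups alone and 56 without the trend, and 17 to 43 when 1 library was left out. The TE count was 4 with median-ratio scaling, 5 without the replicate block, and 5 to 11 when 1 library was left out. The cause was not tested.

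Leaving out 1 library turned the sign of small differences, whose ranges in mRNA were -0.033 to 0.33 (ARO10), -0.16 to 0.085 (HAC1), -0.41 to 0.022 (HNT1), -0.0057 to 0.042 (KAR2), -0.10 to 0.21 (ODC2), -0.037 to 0.38 (PDR12), -0.068 to 0.27 (PDR5) and -0.19 to 0.30 (SNQ2). In footprints they were -0.17 to 0.30 (ARO10), -0.15 to 0.030 (HAC1), -0.012 to 0.33 (HNT1), -0.14 to 0.038 (KAR2) and -0.027 to 0.24 (SNQ2). With 2 libraries a side, differences of genes at low RPKM are the least certain.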

Other observations

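Transcripts of the mitochondrial genome, a group chosen after its values were seen, stood lower with auxin. Of 27 identifiers 19 were measured in mRNA, 16 were lower at both hours and 0 higher (21.6% and 19.4% of all genes), and the median was -0.30 (-0.25 at 1 h and -0.37 at 2 h). Identifiers such as COX1 and AI1, or COB and BI2, may overlap and share reads, so these are not counts of separate transcripts. In the TIR strain the median over both hours was 0.10, but most members were higher with auxin at 1 h and lower at 2 h. COX1 with TIR stood at 0.87 and -0.46, while COX2 was lower at each hour (-0.08 and -0.35) and AI3 higher (0.24 and 0.01). Without TIR, COX2 stood at -0.97 and COB, cytochrome b, at -0.58, and 3 members had an unadjusted p under 0.05, none called. In footprints 3 of the 27 were measured. SCEI, the most abundant, had 3073 and 7743 RPKM with auxin, against 5209 and 7666 RPKM with vehicle (-0.37 ± 0.24). AI3 had 3.76 and 42.3 RPKM with auxin, against 2.02 and 39.3 RPKM with vehicle (0.38 ± 0.81). ATP8 had 2.01 and 18.3 RPKM with auxin and was listed at 0 in both vehicle libraries.

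EGO4, chosen after its values were seen, had 30.7 and 44.6 RPKM of footprints with auxin, against 47.1 and 153 RPKM with vehicle (-1.18 ± 0.28, unadjusted p = 0.00323, adjusted p = 0.855). With TIR it had 26.0 and 49.9 RPKM with auxin, against 85.1 and 153 RPKM with vehicle (-1.64, adjusted p = 0.0139), and the effects differed by 0.46 ± 0.40.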
